A study of Mus musculus with 30 samples.

Results

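The genes of the Fc gamma receptors, their shared signalling chain and the neonatal Fc receptor were followed in the hippocampus and frontal cortex of mice given lipopolysaccharide (LPS), a bacterial outer-membrane component that sets off systemic inflammation. Members were chosen by gene symbol, and all 6 (Fcgr1, Fcgr3, Fcgr4, Fcer1g, Fcgr2b and Fcgrt) were found among the 48820 genes of the count table. All mice were wild-type adult male C57BL/6J, 8 to 12 weeks old and housed singly, in a model of Gulf War Illness. Each had drunk corticosterone (CORT), a stress hormone, at 200 mg/L in 0.6% ethanol for 7 days, and had been injected intraperitoneally on day 8 with diisopropyl fluorophosphate (DFP), a cholinesterase inhibitor, at 4 mg/kg. CORT courses of 7 days were then repeated every other week, for 5 weeks in all. The groups of each tissue were LPS 6 h, LPS 12 h and LPS 24 h (4 libraries each, 0.5 mg/kg under the skin on the final day) and saline 6 h (3 libraries). Every animal had thus received CORT and DFP, the saline ones included, and mice free of both are not part of the data analysed here. Saline tissue came from 6 h alone, so the 12 h and 24 h comparisons with saline also differ in collection time. Of 16 mice, 14 gave both tissues.

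Fc gamma receptors bind the constant part of immunoglobulin G. The activating receptors encoded by Fcgr1 (high affinity for monomeric IgG), Fcgr3 and Fcgr4 have no signalling motif of their own in the mouse and work through the Fc receptor gamma chain, the product of Fcer1g. Its immunoreceptor tyrosine-based activation motif (ITAM) is phosphorylated by Src-family kinases and then recruits the kinase Syk. The inhibitory receptor encoded by Fcgr2b carries an inhibitory motif (ITIM) that recruits the lipid phosphatase SHIP1, the product of Inpp5d. In brain these receptors are known mainly from microglia and border macrophages. Fcgrt encodes the neonatal Fc receptor, a class I-like chain that pairs with beta-2-microglobulin, recycles IgG and is known from endothelium.

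The sequences that set the activating chain apart from the inhibitory receptor were read from the coding sequence of GENCODE M21 on GRCm38, with the tyrosine codons in capitals. The ITAM of Fcer1g lies on the minus strand between chr1:171229889-171230072 across 2 exons, residues 65 to 79, and the ITIM of Fcgr2b lies within 1 exon at chr1:170961071-170961088, minus strand.
Fcer1g ITAM: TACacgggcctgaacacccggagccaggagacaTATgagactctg
Fcgr2b ITIM: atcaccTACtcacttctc
A search of the members' coding sequences for the ITAM pattern found it in Fcer1g alone, in 1 of its 2 complete transcripts. The looser ITIM pattern also matched in the other members except Fcgr3, so that pattern is not particular to Fcgr2b.

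Promoter letters are shown as description, and whether they bear on the response to LPS was not tested. The 120 bases before the annotated start come from RefSeq on GRCm38.p6, and all 6 members had an entry. Capitals mark matches on either strand to TTCNNNGAA (a gamma-activated site), GAAANNGAA (the core of an interferon-stimulated response element) or GAGGAA (the core of PU.1 sites, printed as its complement where it lies on the other strand). The matches shown do not overlap one another. Fcgr3 has more than 1 annotated start, and the 120 bases shown for it and for Fcgr2b lie within their genes' GENCODE M21 spans. Bases before the outermost GENCODE start of either gene were not searched.
Fcgr1, chr3:96293970-96294089, minus strand: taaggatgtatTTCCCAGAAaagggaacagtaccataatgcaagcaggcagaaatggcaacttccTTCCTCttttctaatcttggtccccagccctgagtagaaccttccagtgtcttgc
Fcgr3, chr1:171059404-171059523, minus strand: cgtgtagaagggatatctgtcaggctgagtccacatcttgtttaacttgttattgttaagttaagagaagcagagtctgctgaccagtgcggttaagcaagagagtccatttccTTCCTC
Fcgr4, chr1:171018806-171018925, plus strand: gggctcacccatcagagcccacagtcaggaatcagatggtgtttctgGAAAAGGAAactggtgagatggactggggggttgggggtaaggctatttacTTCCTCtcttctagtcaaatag
Fcgr2b, chr1:170976072-170976191, minus strand: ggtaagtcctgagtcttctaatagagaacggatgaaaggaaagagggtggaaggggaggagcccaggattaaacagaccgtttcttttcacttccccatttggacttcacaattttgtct
The full windows ran 250 bases before to 50 after the start. In them the Fcgr1 gamma-activated site began 109 bases before the start and the Fcgr4 response element core 73 bases before it. Fcgr2b, Fcer1g and Fcgrt held none of these motifs, and no member held GGGANTTCC, an NF-kB site. Among 32851 promoters of this length, 8.3% held the gamma-activated site, 8.56% the response element core, 28.28% the PU.1 core and 1.68% the NF-kB site. A match describes letters in this window and is no evidence of binding.

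Fcgr4, Fcgr3, Fcer1g and Fcgr2b lie within 275.7 kb of chromosome 1, Fcgr1 on chromosome 3 and Fcgrt on chromosome 7. Libraries held 16826882 to 33034295 counts. Members were measured from 6 counts (Fcgr4 in a hippocampal saline library) up to 700 (Fcgr3 in a cortical library), so Fcgr4 is the least precise. Tissue labels held: summed hippocampal markers (5 genes, led by Prox1) were at 599 to 709 CPM (read counts scaled to library size) in hippocampal libraries, against 60.4 to 79.2 CPM in cortical ones. Hippocampal libraries saline A222 and LPS 12 h A261 stood apart by choroid plexus markers (1260 and 2360 CPM summed), as did cortical saline A224 (1030 CPM), and hippocampal results whose call changed without them are marked. Values below are CPM with libraries scaled by edgeR's TMM factors, with log2 fold changes and their standard errors (SE). A gene is called where the adjusted p of edgeR's quasi-likelihood test is below 0.05. In bulk tissue fewer or more cells of a type and less or more RNA per cell cannot be told apart.

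Fcgr1 (ENSMUSG00000015947.10, GRCm38 chr3:96282909-96293969, minus strand) had the largest fold change over saline of the members at all 3 times in both tissues. In the hippocampus it was at 3.2, 4.29, 4.82 and 3.97 CPM at LPS 6 h, 6.63, 6.05, 5.29 and 6.0 CPM at 12 h and 7.0, 6.77, 8.06 and 8.64 CPM at 24 h, against 1.33, 1.14 and 1.55 CPM after saline. The 4 groups did not overlap, and each later one stood above the one before. Its log2 fold change over saline was 1.6 ± 0.17 (SE) at 6 h, 2.17 ± 0.16 at 12 h and 2.51 ± 0.16 at 24 h (adjusted p = 9.72e-07, 3.08e-09 and 3.54e-10). In the cortex Fcgr1 was at 4.81, 5.57, 5.77 and 4.5 CPM at LPS 6 h, 8.08, 7.45, 8.76 and 12.3 CPM at 12 h and 9.21, 8.84, 6.68 and 7.76 CPM at 24 h, against 1.86, 1.64 and 2.01 CPM after saline. Every LPS library again exceeded every saline library, and the 12 h and 24 h groups overlapped. There the log2 fold changes were 1.51 ± 0.2, 2.32 ± 0.19 and 2.15 ± 0.19 (adjusted p = 0.000128, 3.07e-07 and 8.03e-07).

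Fcgr3 (ENSMUSG00000059498.13, chr1:171051174-171064935, minus strand) encodes a low-affinity activating receptor. It was the most abundant of the 4 Fc gamma receptors per kb of exon in every group and had the smallest fold change over saline of them. Hippocampal values were 16.7, 16, 18.5 and 16.2 CPM at LPS 6 h, 15.2, 13.1, 15.3 and 16.4 CPM at 12 h and 20.6, 18.9, 20.6 and 21.4 CPM at 24 h, against 11.9, 12.7 and 12.4 CPM after saline. All LPS libraries lay above the saline ones, with 12 h the nearest to them. The log2 fold changes were 0.46 ± 0.08, 0.3 ± 0.08 and 0.73 ± 0.08 at 6, 12 and 24 h (adjusted p = 0.000552, 0.0144 and 5.6e-07). At 12 h the call was lost without saline A222 (adjusted p = 0.0668), LPS 12 h A261 (0.0594) or both (0.178), and with both tissues in 1 fit the 6 h and 12 h calls were lost (0.0551 and 0.232).

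In the cortex Fcgr3 was at 17.9, 16.1, 20.4 and 17.8 CPM at LPS 6 h, 17.9, 16.1, 24.6 and 28.6 CPM at 12 h and 23.4, 22.7, 17.1 and 17.8 CPM at 24 h, against 13.2, 13.7 and 13.9 CPM after saline. Every LPS library exceeded every saline library, but the LPS libraries spread widely at 12 h and 24 h. Fcgr3 did not pass at 6 h (0.45 ± 0.17, adjusted p = 0.178, and 0.0325 in a fit of the 2 groups alone) and rose by 0.71 ± 0.17 at 12 h and 0.6 ± 0.17 at 24 h on the log2 scale (adjusted p = 0.0156 and 0.047). These cortical calls often failed with a library left out, while the log2 fold changes stayed at 0.53 to 0.82 (12 h) and 0.51 to 0.66 (24 h). The 12 h call was lost without saline A223, A224 or A226 (adjusted p = 0.0689, 0.0504 and 0.0644) or without LPS 12 h A260 or A261 (0.0579 and 0.0544), and with no filter on low counts (0.0509) or the 2 groups alone (0.05). The 24 h call was lost without saline A223, A224 or A226 (0.157, 0.115 and 0.143), without LPS 24 h A274, A275 or A278 (0.133, 0.148 and 0.0637) and with no filter (0.138).

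Fcgr4 (ENSMUSG00000059089.4, chr1:171018920-171029761, plus strand) encodes an activating receptor that binds mouse IgG2a and IgG2b. It was the lowest member in CPM, so its counts are given, not scaled to library size. In the hippocampus there were 20, 35, 11 and 22 counts at LPS 6 h, 26, 20, 39 and 39 at 12 h and 18, 17, 28 and 31 at 24 h, against 9, 17 and 6 after saline. In CPM the 6 h group overlapped saline, while the 12 h and 24 h groups lay above it. The log2 fold changes were 1.38 ± 0.36, 1.85 ± 0.35 and 1.47 ± 0.36 (adjusted p = 0.0234, 0.000557 and 0.00603). The 6 h call was lost without saline A222 (adjusted p = 0.12) or A226 (0.098), without LPS 6 h A241 (0.117) or A243 (0.071), and without A222 and A261 together (0.131). In the cortex Fcgr4 had 22, 26, 33 and 25 counts at LPS 6 h, 53, 32, 30 and 50 at 12 h and 31, 24, 31 and 36 at 24 h, against 11, 11 and 12 after saline. All cortical LPS libraries exceeded the saline ones in CPM, with log2 fold changes of 1.38 ± 0.26, 1.83 ± 0.25 and 1.49 ± 0.26 (adjusted p = 0.00364, 9.19e-05 and 0.00101). The 6 h call was lost without saline A226 (0.0575).

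Fcer1g (ENSMUSG00000058715.11, chr1:171229572-171234365, minus strand), the chain that the activating receptors share, rose by less than Fcgr1 and passed the test from 12 h on. In the hippocampus it was at 5.87, 5.93, 5.69 and 6.66 CPM at LPS 6 h, 7.47, 8.38, 8.2 and 8.27 CPM at 12 h and 9.63, 8.75, 9.8 and 10.1 CPM at 24 h, against 4.95, 4.37 and 5.47 CPM after saline. The groups did not overlap, and the 6 h group was close to saline. It did not pass at 6 h (0.29 ± 0.11, adjusted p = 0.131, and 0.0225 with limma-voom quality weights) and rose by 0.72 ± 0.1 at 12 h and 0.96 ± 0.1 at 24 h (adjusted p = 2.6e-05 and 4.2e-07). In the cortex it was at 8.55, 6.0, 9.0 and 8.01 CPM at LPS 6 h, 8.99, 9.03, 11.2 and 14.4 CPM at 12 h and 11.6, 11.8, 10.1 and 10.2 CPM at 24 h, against 5.89, 4.93 and 6.13 CPM after saline. Only LPS 6 h A241 fell within the saline range. The cortical log2 fold changes were 0.51 ± 0.17, 0.96 ± 0.17 and 0.97 ± 0.17 (adjusted p = 0.117, 0.00111 and 0.00116). The 6 h difference passed without A241 (0.0419) and with both tissues in 1 fit (0.0286).

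Fcgr2b (ENSMUSG00000026656.15, chr1:170958617-170976547, minus strand), the inhibitory receptor, rose with the activating ones. In the hippocampus it was at 3.73, 2.69, 3.95 and 4.3 CPM at LPS 6 h, 5.38, 4.32, 4.18 and 4.69 CPM at 12 h and 5.98, 5.64, 6.86 and 7.59 CPM at 24 h, against 1.26, 1.2 and 1.9 CPM after saline. Every LPS library stood above the saline ones, and the 24 h group above both earlier groups. The log2 fold changes were 1.34 ± 0.19, 1.68 ± 0.19 and 2.17 ± 0.18 (adjusted p = 5.65e-05, 8.77e-07 and 1.17e-08). In the cortex Fcgr2b was at 3.8, 3.32, 4.09 and 3.89 CPM at LPS 6 h, 4.95, 4.11, 7.54 and 9.22 CPM at 12 h and 7.87, 7.52, 5.19 and 5.22 CPM at 24 h, against 2.72, 2.07 and 2.36 CPM after saline. The groups did not overlap with saline, and the 12 h and 24 h groups each held a higher and a lower pair of libraries. The 6 h difference did not pass (0.7 ± 0.26, adjusted p = 0.163, and 0.0343 in a fit of the 2 groups alone), and Fcgr2b was higher by 1.46 ± 0.25 at 12 h and 1.45 ± 0.25 at 24 h (adjusted p = 0.00106 and 0.0012).

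Fcgrt (ENSMUSG00000003420.8, chr7:45092990-45103851, minus strand), the neonatal Fc receptor gene, did not pass in any of the 6 comparisons with saline. In the hippocampus it averaged 10.2 ± 0.657, 11.8 ± 1.34 and 12.0 ± 1.35 CPM at LPS 6, 12 and 24 h (SD, n = 4 each), against 12.1 ± 1.44 CPM after saline (SD, n = 3). In the cortex the means were 12.7 ± 1.83, 14.5 ± 1.91 and 15 ± 1.83 CPM, against 15.9 ± 1.11 CPM. The ranges overlapped saline except at 6 h in the cortex, where 10.1 to 14 CPM lay below 14.7 to 16.8 CPM. The 6 h log2 fold changes were -0.25 ± 0.1 in the hippocampus and -0.28 ± 0.13 in the cortex (adjusted p = 0.248 and 0.252). At 12 h and 24 h they were -0.03 ± 0.1 and -0.02 ± 0.1 in the hippocampus and -0.1 ± 0.13 and -0.06 ± 0.13 in the cortex (adjusted p = 0.714 to 0.936).

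**Figure D1:**
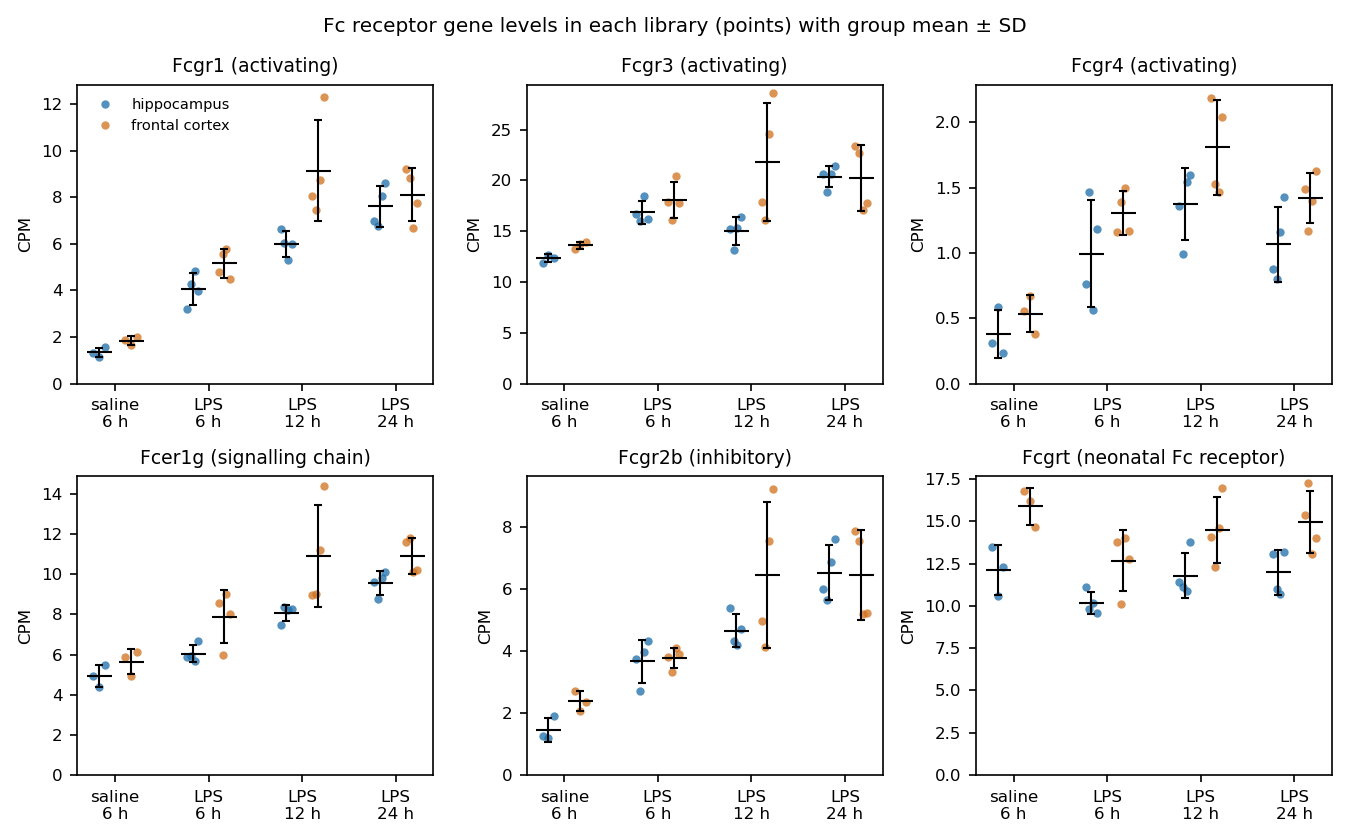
CPM (vertical axes, from 0) of the 6 members in each library, by group, with the group mean and SD as bars; hippocampus in blue, frontal cortex in orange. Fcgr1 has the largest fold change over saline. Fcgr3 starts high and has the smallest fold change of the Fc gamma receptors, and Fcgrt stays between 9.61 and 17.3 CPM throughout.

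Of the 6 members, 4 were called higher at 6 h in the hippocampus, where 2.96% of 17289 genes were, and 5 at 12 h and 5 at 24 h, against 6.07% and 6.76% of genes. In the cortex 2 were called higher at 6 h, against 2.3% of 17111 genes, and 5 at 12 h and 5 at 24 h, against 4.13% and 3.73% of genes. No member was called lower, while 2.15%, 6.28% and 6.6% of all genes were at the 3 hippocampal times and 1.2%, 2.99% and 2.38% at the cortical ones. The median log2 fold change of the members was 0.9, 1.2 and 1.21 in the hippocampus and 0.6, 1.21 and 1.21 in the cortex, while that of all genes tested lay between -0.004 and 0.013. The members were named with earlier results of these data known, so these counts describe them and test nothing more. All LPS groups of a tissue share its 3 saline libraries.

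**Figure D2:**
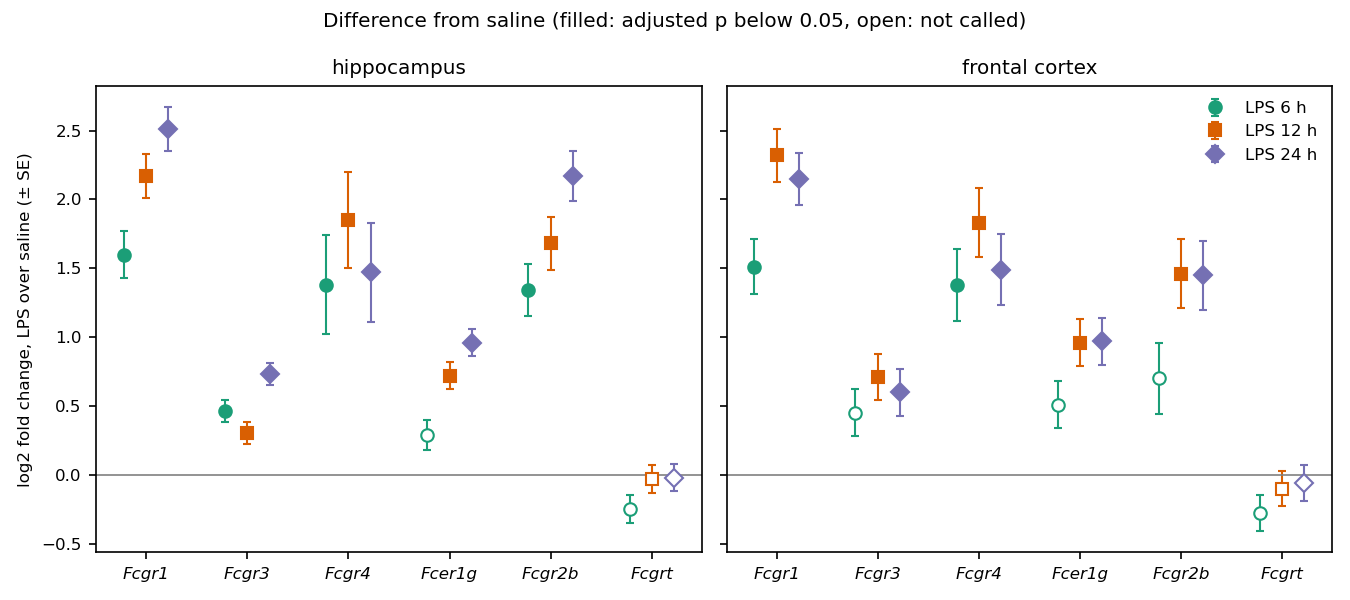
Log2 fold change over saline (vertical axis, ± SE) of each member at 6, 12 and 24 h after LPS, hippocampus left and frontal cortex right. Filled symbols passed the test; the open ones are Fcgrt throughout, Fcer1g at 6 h in both tissues, and Fcgr3 and Fcgr2b at 6 h in the cortex.

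Between LPS times, 4 of 6 members were higher at 24 h than at 6 h in the hippocampus (4.57% of all genes were): Fcgr1 by 0.91 ± 0.13, Fcgr2b by 0.84 ± 0.15, Fcer1g by 0.67 ± 0.09 and Fcgr3 by 0.27 ± 0.07 on the log2 scale (adjusted p = 5.63e-05, 0.000814, 5.14e-05 and 0.0168). The Fcgr3 call was lost without LPS 6 h A241 (adjusted p = 0.0654) or A243 (0.0514), LPS 24 h A278 (0.0593), or with both tissues in 1 fit (0.238). At 12 h against 6 h, Fcgr1 (0.56 ± 0.13, adjusted p = 0.0214) and Fcer1g (0.43 ± 0.09, adjusted p = 0.0158) were called, 2 of 6 beside 1.14% of genes. With a library left out, the log2 differences stayed at 0.46 to 0.65 (Fcgr1) and 0.4 to 0.48 (Fcer1g), but neither call always held. That of Fcgr1 was lost without LPS 6 h A240 (0.104) or A243 (0.0601), LPS 12 h A258 (0.0703), or A222 and A261 together (0.051). That of Fcer1g was lost without LPS 6 h A240 (0.0602), A241 (0.0541) or A242 (0.0507), and with both tissues in 1 fit neither passed (0.0681 and 0.143). At 24 h against 12 h, Fcgr3 was called (0.43 ± 0.07, adjusted p = 0.0015), 1 of 6 beside 0.885% of genes, but not with both tissues in 1 fit (0.137). Fcgr2b missed the threshold there (0.49 ± 0.15, adjusted p = 0.0871) and passed with no filter on low counts (0.0225). Fcgr4 did not pass in any of the 3 hippocampal time comparisons.

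In the cortex Fcgr1 alone was called between times. It was higher at 12 h than at 6 h by 0.82 ± 0.15 (adjusted p = 0.0127; 1 of 6 members and 0.614% of genes) and at 24 h than at 6 h by 0.64 ± 0.15 (adjusted p = 0.0388; 1 of 6 and 0.789% of genes). The 24 h call was lost without LPS 6 h A240, A242 or A243 (0.122, 0.0517 and 0.101) or LPS 24 h A274, A275 or A278 (0.131, 0.115 and 0.056). Fcgr2b differed by 0.76 ± 0.22 in both comparisons and missed the threshold (adjusted p = 0.0934 and 0.0893). It passed with DESeq2 (0.0352 and 0.0308) and with both tissues in 1 fit (0.0226 and 0.0201), at 12 h against 6 h without LPS 12 h A259 (0.0276) and at 24 h against 6 h with the 2 groups alone (0.0291). Fcer1g passed in both comparisons with both tissues in 1 fit (0.0328 and 0.026). Between 24 h and 12 h no member was called, and edgeR called 0% of genes (310 at an unadjusted p under 0.05, and none with DESeq2).

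The tissues were compared in saline mice and then for their response. In saline, Fcgr2b was lower in the hippocampus (1.45 ± 0.389 CPM) than in the cortex (2.38 ± 0.324 CPM; SD, n = 3 each), by -0.69 ± 0.27 on the log2 scale (adjusted p = 0.0473). Fcgrt was also lower, at 12.1 ± 1.44 CPM in the hippocampus and 15.9 ± 1.11 CPM in the cortex (-0.35 ± 0.13, adjusted p = 0.03). These 2 of 6 stand beside 17.2% of 17650 genes called lower, a large background. With the mouse as a replicate block the Fcgr2b call was lost (adjusted p = 0.0825 as a random and 0.319 as a fixed effect). It was also lost with no filter on low counts (0.0648) and without hippocampal A222 or A224 (0.152 and 0.167) or cortical A223 or A226 (0.135 and 0.0945). The Fcgrt call was lost without hippocampal A224 or A226 (0.167 and 0.0545) or cortical A223 or A224 (0.0844 and 0.0697).

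The size of the LPS response was not shown to differ between tissues for any member. As an interaction, 0 of 6 members were called at 6, 12 or 24 h, where 0%, 0.0963% and 0.125% of genes were. At 6 h edgeR called no gene, 1031 had an unadjusted p under 0.05, and the other fits called up to 6 higher and 2 lower. The smallest adjusted p of a member was 0.819, 0.479 and 0.557 at the 3 times. The lowest unadjusted p values belonged to Fcgr2b at 24 h, whose response was larger in the hippocampus by 0.72 ± 0.33 (unadjusted p = 0.0373), and Fcgr3 at 12 h, whose response was smaller there by -0.41 ± 0.19 (unadjusted p = 0.0431). Neither passed the adjustment.

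Activating and inhibitory receptors were next set against each other per kb of exon, which makes levels of different genes comparable. Fcgr3 made up most of the summed level of the 4 receptors in every group, but its share was smaller after LPS. In the hippocampus its mean share was 76.4% ± 2.82 at LPS 6 h, 67.3% ± 1.57 at 12 h and 70.6% ± 2.19 at 24 h (SD, n = 4 each), against 86.9% ± 0.487 after saline (SD, n = 3). Fcgr1 made up 12.3%, 18.1% and 17.7%, against 6.34%. The inhibitory Fcgr2b made up 4.98% ± 0.926, 6.24% ± 0.618 and 6.74% ± 0.413, against 3.07% ± 0.792. Cortical shares were similar in order: Fcgr3 was at 73.8%, 67.1% and 68.3%, against 83.5% after saline, and Fcgr2b at 4.64% ± 0.264, 5.85% ± 0.773 and 6.48% ± 0.556, against 4.39% ± 0.651. The level of Fcgr2b depends on the length used, since its longest transcript is 3544 bases and its exons together 5790. By the longest transcript its share was 8.84% at 24 h in the hippocampus, against 3.95% after saline, and 8.55% in the cortex, against 5.66%.

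**Figure D3:**
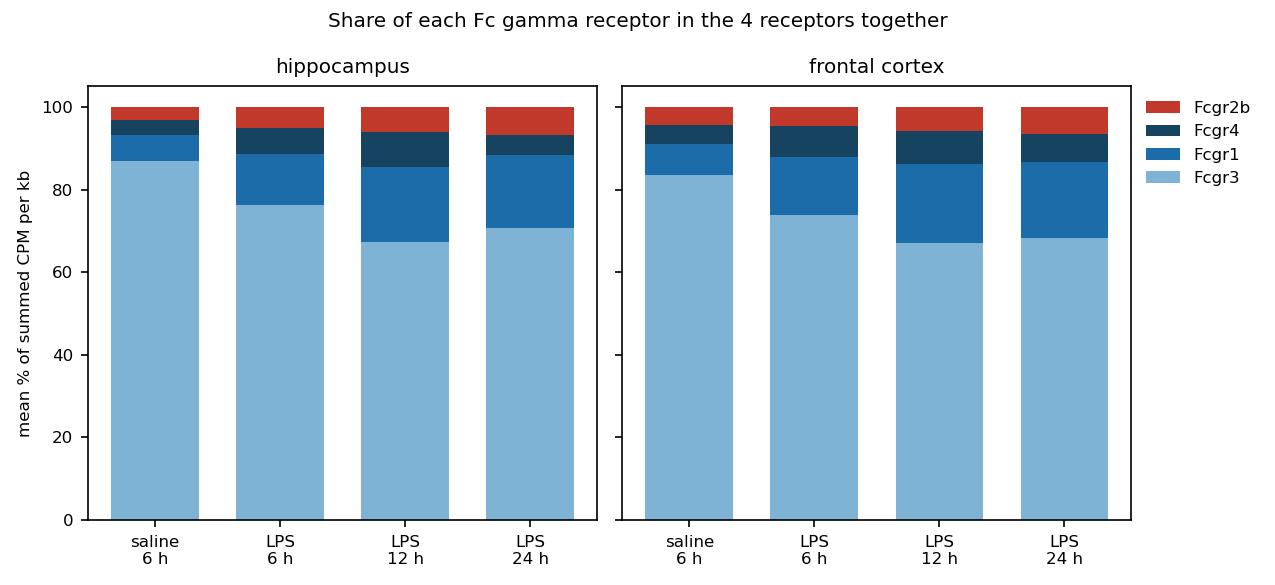
Mean share (vertical axis, % of summed CPM per kb of exon) of each Fc gamma receptor in the 4 together, by group. Fcgr3, at the bottom of each bar, takes 86.9% after saline and 67.3 to 76.4% after LPS in the hippocampus; the inhibitory Fcgr2b, at the top, takes 3.07 to 6.74% there.

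Within each library the ratio of an activating receptor to Fcgr2b was taken per kb of exon. The length used moves the ratios themselves but not their differences between groups. Values against saline are given without a test, since 4 against 3 libraries cannot give an exact two-sided p below 0.0571. The ratio of Fcgr3 to Fcgr2b was lower after LPS: its mean log2 value in the hippocampus was 3.95 ± 0.27, 3.43 ± 0.18 and 3.39 ± 0.13 at 6, 12 and 24 h (SD, n = 4 each), against 4.84 ± 0.36 after saline (SD, n = 3). Every LPS library lay below every saline library there. In the cortex it was 3.99 ± 0.05, 3.52 ± 0.15 and 3.4 ± 0.1, against 4.25 ± 0.22, with an overlap at 6 h alone. Fcgr1 did the reverse. In the cortex its log2 ratio to Fcgr2b was 1.61 ± 0.23, 1.71 ± 0.29 and 1.51 ± 0.16, against 0.8 ± 0.16 after saline, without overlap, and in the hippocampus 1.32 ± 0.41, 1.53 ± 0.08 and 1.39 ± 0.03, against 1.06 ± 0.18, with an overlap at 6 h.

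Fcgr4, with few counts, overlapped saline in its ratio to Fcgr2b at each time in both tissues. The signalling chain Fcer1g, like Fcgr3, lost ground to Fcgr2b. Its mean log2 ratio in the hippocampus was 3.46, 3.53 and 3.29, against 4.5 after saline, with no overlap at any time, and in the cortex 3.77, 3.53 and 3.51, against 3.97, apart from saline at 24 h alone.

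Between LPS 24 h and 6 h the 3 receptor ratios were tested in each tissue, 6 tests in all, by an exact two-sided permutation test of 4 against 4 libraries. The log2 ratio of Fcgr3 to Fcgr2b was lower at 24 h by -0.56 in the hippocampus and -0.59 in the cortex, with every 24 h library below every 6 h library in both. Each had an exact p = 0.0286, the smallest this design can give, and an adjusted p of 0.0857, so neither passed. For any to pass, 4 of the 6 ratios would have to reach that smallest p, so the tests cannot decide whether these ratios differed. The ratio of Fcgr4 to Fcgr2b differed by -0.68 in the hippocampus (exact p = 0.143, adjusted p = 0.214) and -0.63 in the cortex (exact p = 0.0857, adjusted p = 0.171). That of Fcgr1 differed by 0.07 and -0.1 (exact p = 0.886 and 0.543).

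**Figure D4:**
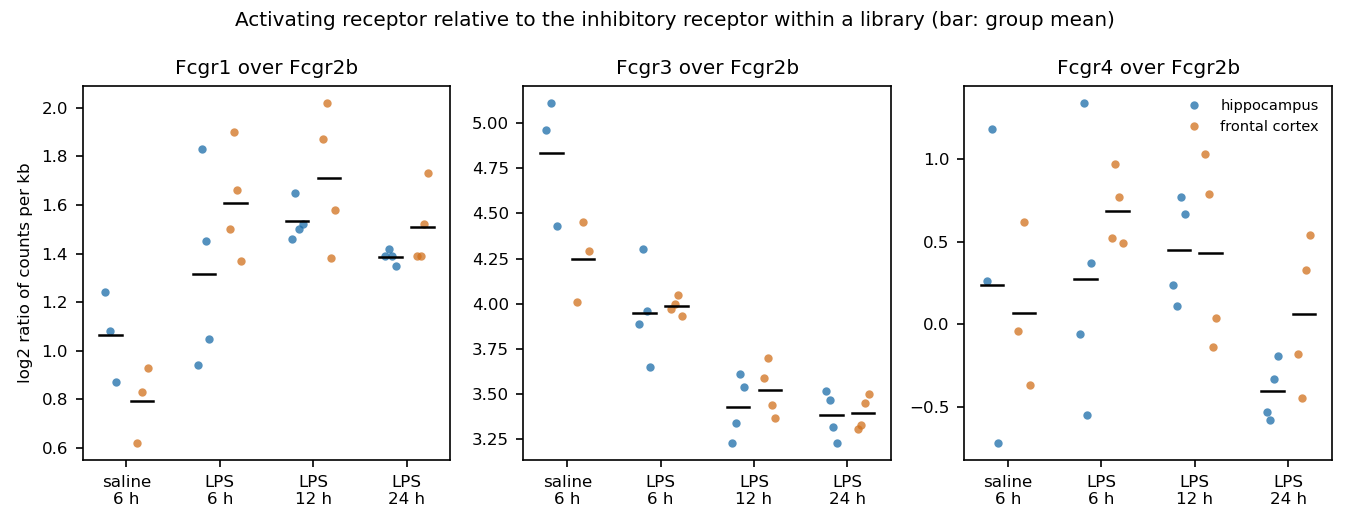
Log2 ratio of counts per kb (vertical axes) of each activating receptor to the inhibitory Fcgr2b within each library, with group means as bars; hippocampus in blue, frontal cortex in orange. The Fcgr3 ratio steps down across the groups to means of 3.39 and 3.4 at 24 h, while the Fcgr1 ratio lies above its saline mean in each LPS group.

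Downstream of the receptors, some of the Src-family and Syk kinases were called higher and others did not pass. Of 7 kinases tested, 3, 4 and 4 were called higher at the 3 times in the hippocampus, where 0, 1 and 1 were lower, and in the cortex 3, 3 and 4 were higher and none lower. These counts, and those of the lists that follow, stand beside 2.96%, 6.07% and 6.76% of all genes called higher and 2.15%, 6.28% and 6.6% called lower in the hippocampus, and 2.3%, 4.13% and 3.73% higher and 1.2%, 2.99% and 2.38% lower in the cortex. The kinase called lower was Src, which many cell types express, by -0.15 ± 0.04 at 12 h (adjusted p = 0.0236) and -0.17 ± 0.04 at 24 h (adjusted p = 0.0123). The list's median log2 fold change was 0.34, 0.63 and 0.69 in the hippocampus and 0.33, 0.59 and 0.67 in the cortex. Fgr, a myeloid kinase, was at 0.583, 0.641 and 0.325 CPM in the hippocampus at the 3 times, against 0.0835 CPM after saline, with log2 fold changes of 2.74 ± 0.45, 2.86 ± 0.44 and 1.91 ± 0.5 (adjusted p = 0.000203, 4.86e-05 and 0.00882). Lyn, which acts for both activating and inhibitory receptors, rose in all 6 comparisons, by 0.87 ± 0.12, 1.08 ± 0.12 and 0.98 ± 0.12 in the hippocampus and 0.61 ± 0.13, 0.87 ± 0.13 and 0.9 ± 0.13 in the cortex. Syk, the kinase that docks on the ITAM, was called at 12 h (0.63 ± 0.16, adjusted p = 0.0107) and 24 h (0.69 ± 0.16, adjusted p = 0.00526) in the hippocampus and at 24 h in the cortex (0.67 ± 0.18, adjusted p = 0.0366).

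Of the adaptors and effectors, 20 of 21 were tested, and 5, 9 and 12 were called higher in the hippocampus and 1 lower at each time (Plcg1, a phospholipase, at 6 h and 12 h, and Grb2, an adaptor, at 24 h). In the cortex 4, 7 and 8 were higher and none lower. The list's median was 0.09, 0.29 and 0.6 in the hippocampus and 0.15, 0.4 and 0.38 in the cortex. Rac2, a GTPase of phagocytosis, was at 2.82, 3.64 and 4.65 CPM in the hippocampus, against 1.62 CPM after saline, and rose by 0.81 ± 0.18, 1.19 ± 0.17 and 1.53 ± 0.17 on the log2 scale (adjusted p = 0.00612, 3.56e-05 and 9.71e-07). Lcp2, the adaptor SLP-76 that Syk phosphorylates, rose by 1.11 ± 0.18, 1.41 ± 0.18 and 1.27 ± 0.18. Lat2, a membrane adaptor, was called at 12 h and 24 h in both tissues, reaching 1.64 ± 0.28 in the hippocampus and 1.81 ± 0.39 in the cortex at 24 h. Vav1, an exchange factor for Rac, rose in the cortex by 0.79 ± 0.16, 1.34 ± 0.16 and 1.29 ± 0.16.

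Among 8 inhibitory phosphatases and brakes the directions were mixed: 0, 2 and 1 were higher and 2, 1 and 0 lower in the hippocampus, and 1, 2 and 2 higher and 2, 1 and 1 lower in the cortex. In a list of 8 a single call is 1 gene, and the shares of all genes called reach 6.76% higher and 6.6% lower, so single calls here say nothing about the list. Inpp5d, the phosphatase that the Fcgr2b ITIM recruits, was lower at 6 h, at 6.13 CPM against 9.15 CPM after saline in the hippocampus (-0.58 ± 0.12, adjusted p = 0.00361) and 7.68 against 11.3 CPM in the cortex (-0.52 ± 0.13, adjusted p = 0.0269). It did not pass at 12 h or 24 h in either tissue, where it was at 8.7 and 11.3 CPM in the hippocampus and 11.9 and 12.4 CPM in the cortex. Fcgr2b and Inpp5d thus stood on opposite sides of saline at 6 h in the hippocampus. Ptpn6, which encodes the phosphatase SHP-1, was higher at 12 h and 24 h in the hippocampus (0.81 ± 0.18 and 0.91 ± 0.18) and at all 3 times in the cortex (0.58 ± 0.15, 0.93 ± 0.14 and 1.02 ± 0.14). Ptpn11, which encodes SHP-2, was lower at all 3 cortical times, at 186, 182 and 185 CPM, against 227 CPM after saline.

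**Figure D5:**
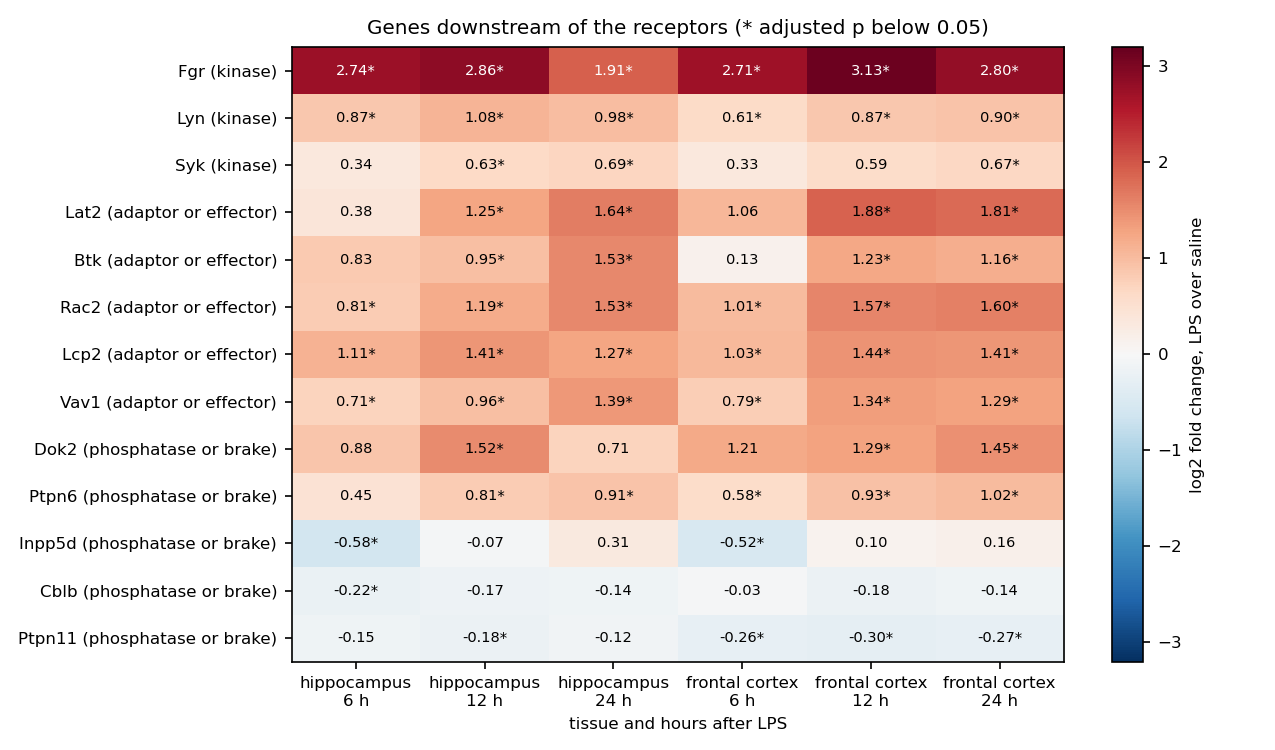
Log2 fold change over saline (colour and printed values) of leading genes of the kinase, adaptor and phosphatase lists, in rows, at each tissue and time, in columns; an asterisk marks an adjusted p below 0.05. Fgr has the largest values, from 1.91 to 3.13, over low saline means of 0.0835 CPM (hippocampus) and 0.107 CPM (cortex). Inpp5d is below 0 with an asterisk at 6 h in both tissues.

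Other chains and Fc receptors were mostly too low to test. Tyrobp, which encodes the ITAM chain DAP12 of microglia, was the sole tested gene of 7 in its list and rose by 0.45 ± 0.1 at 12 h and 0.73 ± 0.1 at 24 h in the hippocampus and by 0.9 ± 0.18 and 0.73 ± 0.18 in the cortex. Of 9 receptors that use Fcer1g, 4 were tested in the cortex and 3, 3 and 2 called higher at the 3 times. The genes called were so low after saline that they passed the count filter through LPS libraries alone. Their share among the tested genes is thus not independent of that filter. Oscar, at 0.708 CPM after saline in the cortex, was not called. Clec4n, the fungal sensor Dectin-2, was at 0.569, 0.68 and 0.717 CPM there, against 0.134 CPM after saline (adjusted p = 0.0306, 0.00669 and 0.00582). In the hippocampus Oscar alone was tested and was not called. Of 11 other Fc receptor and receptor-like genes 4 were tested, and Fcrls and Trim21 were called higher at 12 h and 24 h in both tissues. Trim21, a cytosolic IgG receptor, rose by 0.76 ± 0.19 and 0.69 ± 0.19 in the hippocampus and 1.13 ± 0.25 and 1.02 ± 0.25 in the cortex.

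The partner of Fcgrt passed the test where Fcgrt did not. B2m, which encodes beta-2-microglobulin, rose in all 6 comparisons, by 0.33 ± 0.06, 0.42 ± 0.06 and 0.52 ± 0.06 in the hippocampus (adjusted p = 0.000488, 1.2e-05 and 4.91e-07) and by 0.4 ± 0.09, 0.44 ± 0.09 and 0.36 ± 0.09 in the cortex (adjusted p = 0.0162, 0.00497 and 0.0233). Of the other 3 class I-related genes in its list, Hfe was called once, at 24 h in the hippocampus (0.49 ± 0.16, adjusted p = 0.0446). Immunoglobulin genes and B cell genes were mostly too low to test: 1 of 9 was tested in the hippocampus and 2 in the cortex. The IgG genes encode the ligand, and Ighg2c was the sole one tested, in the cortex alone. It was at 3.35, 4.12 and 4.04 CPM there, against 3.15 CPM after saline, and did not pass (log2 fold changes of 0.1 ± 0.17, 0.39 ± 0.16 and 0.36 ± 0.16, adjusted p = 0.761, 0.186 and 0.259). Ighm, the heavy chain gene of IgM, which these receptors do not bind, was lower at 6 h, at 4.66 CPM against 12.4 CPM after saline in the hippocampus (adjusted p = 0.00338) and 12.2 against 21.2 CPM in the cortex (adjusted p = 0.0304), and at 12 h in the hippocampus, at 5.4 CPM (adjusted p = 0.00468). It did not pass at 24 h in the hippocampus, at 7.73 CPM (adjusted p = 0.076), or at 12 h and 24 h in the cortex, at 19.8 and 20.3 CPM (log2 fold changes of -0.08 and -0.05).

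Markers of the cells that can carry these receptors differed from one another in how they stood after LPS. The 9 microglia markers summed to 156 to 201, 228 to 246 and 338 to 384 CPM at LPS 6, 12 and 24 h in the hippocampus, against 181 to 239 CPM after saline, and 0, 2 and 8 of 9 were called higher. In the cortex they summed to 143 to 185, 232 to 416 and 256 to 387 CPM, against 179 to 241.4 CPM, and 0, 1 and 2 were called higher. At 6 h the range of the microglia sum overlapped saline in both tissues. The sum depends on cell number and on RNA per cell, which bulk tissue cannot tell apart. None of these markers was at 0 in any group. The cortical libraries that were highest for Fcgr3, Fcgr2b and Fcer1g, LPS 12 h A261 and LPS 24 h A274 and A275, also had the highest microglia sums of their groups (416, 387 and 362 CPM). Divided by the microglia sum in the same library, Fcgr1 remained above saline in every LPS library, with log2 differences of 1.76, 1.92 and 1.64 in the hippocampus and 1.82, 1.84 and 1.61 in the cortex. Fcgr2b did so as well (1.5, 1.45 and 1.31, and 1.01, 0.92 and 0.89). Fcer1g lay above saline in this ratio except at 24 h in the hippocampus, where the groups overlapped. Fcgr4 lay above it at 12 h in the hippocampus and at 6 h and 12 h in the cortex and overlapped otherwise. Fcgrt overlapped or lay below saline. For Fcgr3 the difference was 0.61 and 0.74 at 6 h in the hippocampus and cortex, without overlap, and -0.15 and 0.04 at 24 h, where the groups overlapped. How far cell number accounts for the members' changes was not tested.

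Neutrophil markers (8 genes, led by S100a8) summed to 8.23 to 9.93, 5.16 to 10.1 and 2.82 to 10.1 CPM at 6, 12 and 24 h in the hippocampus, against 0.0349 to 0.275 CPM after saline, with 5 of 5 tested called higher at each time and 3 of 8 at 0 in all saline libraries. In the cortex they summed to 16.5 to 21.8, 8.86 to 17.3 and 7.15 to 10.9 CPM, against 0 to 1.11 CPM, with 6, 6 and 4 of 6 tested called and 1 of 8 at 0 after saline. With so few saline reads, neutrophil markers could pass the count filter through LPS libraries alone. Being tested and being called higher are thus not independent for them, and the shares called are no separate result. Monocyte markers (5 genes, led by Ly6c2) summed to 2.26 to 5.64 CPM after LPS in the hippocampus, against 1.31 to 2.16 CPM, and to 4.49 to 10.6 CPM in the cortex, against 2.07 to 3.02 CPM, with 1 of 2 tested called higher at each hippocampal time and 2 of 3 at each cortical time. Ly6c2 itself lay above saline at 6 h, at 1.88 to 2.13 against 1.03 to 1.85 CPM (hippocampus) and 2.75 to 4.23 against 1.58 to 2.52 CPM (cortex). At 12 h and 24 h Ly6c2 overlapped saline in both tissues. Neutrophils and monocytes carry Fcgr3 and Fcgr4, and their part in the members' levels was not tested.

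Border macrophage markers (7 genes, led by Mrc1) summed to 4.49 to 7.74 CPM after LPS and 4.68 to 7.46 CPM after saline in the hippocampus, with 0, 1 and 1 of 5 tested called higher and 0, 2 and 1 lower. In the cortex they summed to 8.25 to 12.5 CPM, against 14.5 to 16.2 CPM, with 0, 1 and 1 of 7 called higher and 2, 3 and 3 lower. Mrc1 itself lay above saline in the hippocampus at 12 h and 24 h (2.09 to 2.88 and 2.29 to 3.6, against 0.654 to 1.67 CPM). It overlapped saline at 6 h there and at each cortical time. B cell markers, for cells in which Fcgr2b is the one Fc gamma receptor, summed to at most 0.537 CPM after LPS and 0.415 CPM after saline. Mast cell markers summed to at most 0.247 CPM after LPS and 0.207 CPM after saline, and NK and T cell markers to at most 0.997 and 0.663 CPM.

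Across the 30 libraries, centred on the mean of each tissue, the 5 receptor and chain genes varied together and apart from Fcgrt. Fcgr1 and Fcgr2b had a Pearson r of 0.94, Fcgr2b and Fcer1g 0.92, and Fcgr3 and Fcgr4 0.59, while Fcgrt had r between -0.21 and 0.24 with the others. Among 12413 genes, those most like Fcgr1 were Ifit3 (r = 0.98), Oasl2 (0.979) and Lgals9 (0.976), the first and second being interferon-stimulated genes. Those most like Fcgr2b were Ptprc (0.954), which encodes the leukocyte antigen CD45, Bin2 (0.948) and Ifit3 (0.942). Fcer1g was most like Bin2 (0.943), Ednrb (0.939) and Car2 (0.939), and Fcgr3 like Tyrobp (0.886), Ifi30 (0.874) and Aida (0.871). Fcgr4 was most like B3gnt3 (0.894), Ctsc (0.877) and Pla2g4a (0.866), and Fcgrt like Bcam (0.77), Tmem110 (0.765) and Kank3 (0.734). The libraries include saline and LPS groups and were centred by tissue alone, so differences between groups enter these r values. They carry no p.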

How the data were processed

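RNA of each tissue was poly(A)-selected, made into stranded libraries and read from both ends at 150 bp, per the labels' protocols. The deposited table holds whole-number counts per gene. The tools named are STAR 2.6.0a, Trim Galore 0.4.1, DESeq2 and FastQC, on GRCm38 (mm10), per the submitters' processing notes. How reads were counted (tool, strand setting, annotation) is not given in the sources used here. A hippocampal saline library that the labels call excluded was not analysed here.

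Symbols, coordinates and exon lengths come from GENCODE M21 (98.4% of 48820 identifiers had a symbol). Fcgr3 shares 2.54% of its 100-base windows with Fcgr2b, so few reads could be divided between them. Fcgr2b and Fcgrt overlap the antisense genes Gm38204 and Gm45669, both listed at 0 counts in every library. No protein table was at hand, so motifs were searched in coding sequence.

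For each tissue, 1 model over its 15 libraries was fitted in R 4.3.3 with edgeR 4.0.16 (filterByExpr, minimum count 10 and total 15; TMM; robust glmQLFit, glmQLFTest). All 30 libraries were fitted for tissue comparisons. Adjusted p values are Benjamini-Hochberg over 17289, 17111 or 17650 genes, threshold 0.05. All members passed the filter. Fits were tested on simulated data. Ratios to Fcgr2b used counts with 0.5 added, per kb of exon. Totals of 16826882 to 33034295 counts limit Fcgr4 the most. Samples were grouped by the labels, which do not say more of how replicates were taken, so p values measure the spread between these mice. No replicate pair agreed within sampling noise (lowest chi-square per gene 2.23).

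The mouse codes of the labels pair the tissues, and the counts show this pairing only weakly. Deviations from group means correlated with a median r of 0.104 (-0.062 to 0.293) over 14 mice. For 9 of them the hippocampal library was most like the same mouse's cortical library within its group. Members and lists were chosen with earlier results of these data known. Named genes were the 6 members, up to 4 genes a list and tissue (called ones by size, then by p), summed markers and the 3 genes most like each member. Some of these are not reported here. Alternatives were DESeq2 1.42.0, limma-voom (limma 3.58.1), other scalings and filters, the 2 groups alone, both tissues in 1 fit, mouse blocks and each library left out.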

Additional observations from a re-analysis of the deposited data

How the results depend on the processing

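Of 37 member differences that passed the test, none changed sign under the alternatives run, and 56 of 583 refits lost the call. The 59 that did not pass gained it in 15 of 1047 refits. Of these 59, the 35 between times or tissues with an unadjusted p of 0.05 or more changed sign in 74 of 650 refits, and the other 24 in 11 of 397. Those 11 were all of Fcgrt against saline: 0.01 and 0.03 (hippocampus 12 h and 24 h) and 0.02 (cortex 24 h) with library totals alone, 0.06 and 0.11 with limma-voom weights, 0.07 at 24 h without hippocampal A222 and A261, which was added after seeing the data, and with single libraries left out -0.13 to 0.06 at 12 h and -0.11 to 0.07 at 24 h.

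Counts of members called moved as follows. Hippocampal 12 h against 6 h gave 0 with both tissues in 1 fit, 1 without A222 and A261, and 0 to 2 with a library left out (2 as reported). Hippocampal 24 h against 12 h gave 2 with no filter and 0 with both tissues in 1 fit (1 as reported). Cortical 6 h gave 4 with the 2 groups alone and 1 to 3 with a library left out (2). Cortical 12 h against 6 h gave 2 with DESeq2, 3 with both tissues in 1 fit and 1 to 2 with a library left out (1). Cortical 24 h against 6 h gave 2 with DESeq2 or the 2 groups alone, 3 with both tissues in 1 fit and 0 to 1 with a library left out (1). In saline, hippocampus against cortex gave 1 with no filter and 0 to 1 with a library left out (2). With the mouse as a replicate block, random or fixed, it gave 1, and the block changed no other call. Elsewhere counts moved by less than 1.5 times: hippocampal 6 h gave 3 to 5 (4 as reported), hippocampal 24 h against 6 h 3 to 5 (4; Fcgrt passed with limma-voom weights, at an adjusted p of 0.0336), and hippocampal 12 h and cortical 12 h and 24 h 4 to 5 (5). The cause was not tested.

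The log2 ratio of Fcgr1 to Fcgr2b, 24 h against 6 h, ran from -0.05 to 0.24 in the hippocampus and -0.18 to 0 in the cortex with a library left out. The ratio tests say nothing about stability: with a library left out the smallest exact p is 0.0571, and with 4 against 4 libraries 4 of the 6 ratios would have to reach the smallest p for any to pass. Over all genes, library totals alone moved the share of calls that were higher to 66.1% and 68.6% at 12 h and 24 h in the hippocampus (49.2% and 50.6% as reported) and to 78.6% and 78.5% in the cortex (58% and 61.1%), with shifts of the median of at most 0.079. Between times it was 60.6% for hippocampal 24 h against 6 h (48.2%), and 71.1% and 67.4% for cortical 12 h and 24 h against 6 h (50% and 43.1%). The number of genes called higher depended on the fit and on single libraries: 319 to 862 at 6 h in the hippocampus (512 as reported), 211 to 733 at 6 h in the cortex (394), 17 to 367 for hippocampal 24 h against 12 h (153) and 47 to 338 for cortical 12 h against 6 h (105). With few counts, Fcgr4 is limited most by depth.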
